A study of Mus musculus with 28 samples.

Results

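The caveolin and cavin genes expressed outside striated muscle are 5 in the mouse, Cav1, Cav2, Cavin1, Cavin2 and Cavin3, and all 5 were found among the 53342 Ensembl gene identifiers counted in this study. The members were named from the caveolin and cavin families and were chosen on earlier results of these same libraries, in which the genotypes and the TRAP fractions had already been compared. Those contrasts are therefore given as descriptions with no p-value, and adjusted p-values are given for the members only at P17 and in the Input fraction. All 5 genes passed the filter on low counts in every comparison.

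Caveolae are small flask-shaped pits of the plasma membrane that buffer membrane tension and take part in endocytosis and signalling. Caveolin 1 forms the oligomeric scaffold embedded in the membrane, and caveolin 2 joins it in hetero-oligomers. The cavins form a peripheral coat: cavin 1 is required to make a caveola, cavin 2 helps to bend the membrane, and cavin 3 is an adaptor linked to caveolar trafficking. In the brain, caveolae are best known from the vessel wall, where endothelial cells of the blood-brain barrier keep them scarce and arterial endothelium and mural cells carry more.

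The libraries were made from cerebral cortex RNA of mice on a C57BL/6J background. The cKO mice carried mGFAP-Cre, a driver active in astrocytes, and 2 loxP-flanked alleles of the gene the study deletes, while littermates of the same sex with loxP/loxP or loxP/+ genotypes served as Ctrl. Bulk RNA-Seq was done at postnatal day 24 (P24) and 17 (P17) with 4 cKO and 4 Ctrl mice at each age, and TRAP-Seq at P24 with 3 cKO and 3 Ctrl mice. The TRAP mice of both genotypes also carried a Cre-dependent EGFP fused to ribosomal protein L10A, so that ribosomes of Cre-expressing cells could be pulled down (IP) and compared with the RNA of the whole homogenate of the same cortex (Input). Each library came from 1 mouse, and an IP reports whichever cells the Cre had recombined. The Cre is not named in the Ctrl genotypes of the sources used here, although Ctrl mice also gave IP libraries. Totals were 8855488 to 14575306 reads in the 16 bulk libraries and 18433087 to 27242445 in the 12 TRAP libraries. At that depth, 3 reads correspond to 0.206 to 0.339 CPM in bulk and 0.11 to 0.163 CPM in TRAP, by the library total alone and counting error only. CPM are reads per 1000000, and all other values use the library total scaled by a TMM normalization factor.

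Cav1 (ENSMUSG00000007655) lies on chromosome 6 at 17306335 to 17341452 of GRCm38, plus strand, and Cav2 (ENSMUSG00000000058) at 17281185 to 17289115 on the same strand, 17219 bases upstream. Cavin1 (ENSMUSG00000004044) is on the minus strand of chromosome 11 at 100956733 to 100970887, with Stat3 as its nearest coding neighbour on that strand, 17192 bases away. Cavin2 (ENSMUSG00000045954) is on chromosome 1 at 51289126 to 51302960, plus strand, and Cavin3 (ENSMUSG00000037060) on chromosome 7 at 105480083 to 105482300, minus strand. The non-coding gene Gm15581 runs across both caveolin genes on the opposite strand, from 17206823 to 17385604, so it spans the whole of each.

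Promoter sequence was read for 4 of the 5 members from RefSeq on GRCm38.p6, as the 250 bases before the first annotated start. The windows of Cav1 and Cav2 are shown because these neighbours moved together in cKO mice, and that of Cavin2 because its level hardly moved. Capitals mark matches, on either strand, to the searched motifs: GC box (GGGCGG), AP-1 site (TGANTCA), antioxidant response element core (TGANNNNGC), STAT site (TTCNNNGAA), E-box (CACGTG), full CRE (TGACGTCA), FOX core (GTAAACA) and TATA box (TATAAA).
Cav1, chr6:17306085-17306334, plus strand: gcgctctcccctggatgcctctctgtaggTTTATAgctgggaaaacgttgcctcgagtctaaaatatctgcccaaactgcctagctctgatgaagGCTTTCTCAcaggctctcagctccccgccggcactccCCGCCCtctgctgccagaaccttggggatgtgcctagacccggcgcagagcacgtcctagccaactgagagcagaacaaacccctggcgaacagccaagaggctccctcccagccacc
Cav2, chr6:17280935-17281184, plus strand: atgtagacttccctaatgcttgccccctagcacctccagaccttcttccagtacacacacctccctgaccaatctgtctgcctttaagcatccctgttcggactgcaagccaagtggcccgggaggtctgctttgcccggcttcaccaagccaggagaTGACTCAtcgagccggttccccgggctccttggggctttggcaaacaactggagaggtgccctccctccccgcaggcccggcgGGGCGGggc
Cavin2, chr1:51288876-51289125, plus strand: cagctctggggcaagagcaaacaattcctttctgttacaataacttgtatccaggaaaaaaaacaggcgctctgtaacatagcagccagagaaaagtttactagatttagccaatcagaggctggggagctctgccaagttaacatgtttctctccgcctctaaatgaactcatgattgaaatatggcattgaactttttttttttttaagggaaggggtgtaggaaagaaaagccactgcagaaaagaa
The Cav2 window held an AP-1 site 92 bases before the start, a motif found in 6.75% of 32851 promoter windows of this length, and a GC box 9 bases before it. The Cav1 window held a GC box at 118 bases, an antioxidant response element core at 155 bases and the letters of a TATA box at 221 bases, all on the minus strand. GC boxes were present in 32.7% of all windows, antioxidant response element cores in 35.2% and TATA letters in 12.4%. The Cavin2 window matched none of the 8 motifs, and G and C made up 40.4% of it against 59.6% for Cav1 and 62.0% for Cav2. Cavin1, whose genotypes also overlapped, has 2 windows in RefSeq, not shown. Each was 67.6% G and C and held a GC box, at 7 and 9 bases before its start. The windows overlap, at 100970618 to 100970867 and 100970616 to 100970865 of chromosome 11, and this is the same GC box in both. RefSeq lists a second start for Cav1, whose window at chr6:17307390-17307639 matched none of the motifs. A match is only a run of letters in these windows.

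In Ctrl cortex the members were moderately to weakly expressed, and caveolin 2 and cavin 3 led. Scaled to exonic length, the P24 bulk levels were 4.598 ± 0.195 CPM per kb for Cav2, 4.54 ± 0.577 for Cavin3, 3.33 ± 0.408 for Cavin1, 2.27 ± 0.0857 for Cav1 and 1.61 ± 0.230 for Cavin2 (mean ± SD, n = 4). The Cav2 and Cavin3 ranges overlapped, whereas each later step in that order separated every library. At P17 the Ctrl levels of Cavin3, Cav2 and Cavin1 all overlapped, at 4.77 ± 0.227, 4.76 ± 0.411 and 4.66 ± 0.594 CPM per kb (SD, n = 4), with Cav1 at 2.61 ± 0.259 and Cavin2 at 1.94 ± 0.299, which overlapped each other, below them. Per kb orders and ratios between genes rest on exonic length and on the assumption that reads were assigned to exons, which the sources used here do not give and which was not tested. In P24 cKO cortex Cav1 passed Cavin1 in the order of means, at 6.15 ± 2.17 against 3.63 ± 0.729 CPM per kb (SD, n = 4), although the ranges overlapped.

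**Figure D1:**
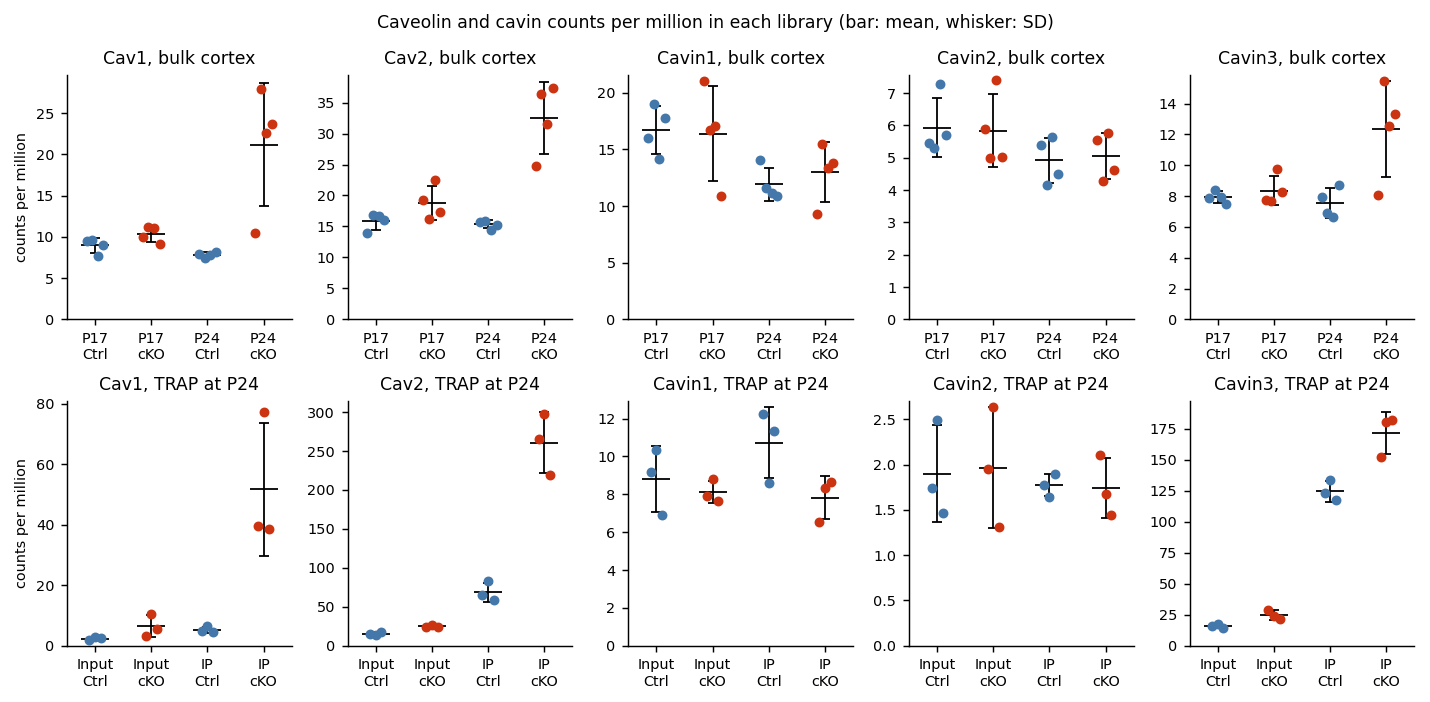
CPM (linear axes from 0) of each member in every library, bulk cortex in the upper row and TRAP at P24 in the lower row. Points are single mice (blue Ctrl, red cKO), bars are means and whiskers SD. The P24 cKO points for Cav1 and Cav2 lie above every Ctrl point in bulk, Input and IP, while Cavin2 overlaps throughout.

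The IP against Input comparison asked which members were carried on astrocyte ribosomes, and it split the family. In Ctrl mice Cavin3 was at 15.6, 17.1 and 13.9 CPM in Input and at 123, 134 and 117 CPM in IP, a log2 difference of 2.96 (SE 0.11, n = 3 per fraction). Cav2 was at 14.5, 13.3 and 17.8 CPM in Input and 65.1, 82.6 and 58.6 CPM in IP, a log2 difference of 2.13 (SE 0.15). Cav1 was at 1.95, 2.71 and 2.42 CPM in Input and 4.80, 6.39 and 4.57 CPM in IP, a log2 difference of 1.12 (SE 0.20). For these 3 genes every IP library stood above every Input library. The essential coat protein gene Cavin1 was at 9.18, 10.4 and 6.91 CPM in Input and 12.3, 8.61 and 11.3 CPM in IP, with overlapping fractions and a log2 difference of 0.24 (SE 0.18). Cavin2 was at 1.74, 2.49 and 1.46 CPM in Input and 1.78, 1.65 and 1.89 CPM in IP, also overlapping, with a log2 difference of -0.14 (SE 0.25).

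Counted against the threshold of adjusted p under 0.05 in edgeR's quasi-likelihood test, 3 of 5 members were higher in Ctrl IP than in Input and 0 lower, where 35.3% of the 24385 genes tested were higher and 35.7% lower. By the threshold-free count, the 3 members whose fractions did not overlap compare with 38.8% of all genes higher in every IP library. These shares are given as description, since the rule for the members used this contrast. The per-length order in Ctrl IP had no overlap at any step, from Cavin3 at 75.0 ± 5.10 CPM per kb through Cav2 at 20.6 ± 3.71, Cavin1 at 2.99 ± 0.529 and Cav1 at 1.53 ± 0.288 to Cavin2 at 0.580 ± 0.0403 (SD, n = 3).

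Cell type markers give the scale for this split. All 9 astrocyte markers were higher in Ctrl IP, with a median log2 difference of 3.31, against a median of -0.03 over all genes tested. Of these, Slc1a3, which encodes an astrocyte glutamate transporter, was 3.95 higher (SE 0.17) and Aldh1l1, a folate enzyme gene used as an astrocyte marker, was 2.40 higher (SE 0.13) on the log2 scale. The list ranged from 2.40 to 4.08, so Cavin3 lay within it, Cav2 just below it and Cav1 between it and 0.

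Of 17 endothelial markers tested, 11 were lower in Ctrl IP and 1 higher, with a median log2 difference of -1.08. Cldn5, a tight junction gene of the blood-brain barrier, differed by -0.89 (SE 0.27), and Pecam1, an endothelial adhesion gene, by -0.75 (SE 0.28). Both values missed the threshold without some single libraries, Cldn5 at -0.78 without Input Ctrl replicate 2 and Pecam1 at -0.58 to -0.83 without each of 6 libraries in turn. The mural list was mixed, with 3 of 10 tested markers higher, 4 lower and a median of -0.21. Acta2, the smooth muscle actin gene, was 2.47 higher in IP (SE 0.30) and Pdgfrb, a pericyte receptor gene, 1.01 higher (SE 0.22), while Rgs5, a pericyte marker, differed by -0.15 (SE 0.23, not past the threshold). The mural list ranged from -3.16 to 2.47, so Cav1, Cav2, Cavin1 and Cavin2 all lay within it, and Cavin3 lay above it. Cavin1 and Cavin2 lay near the mural median and also near the median of -0.03 over all genes tested. Their differences were less negative than the endothelial median. The part of mural transcripts in the IP values of the members was not tested.

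**Figure D2:**
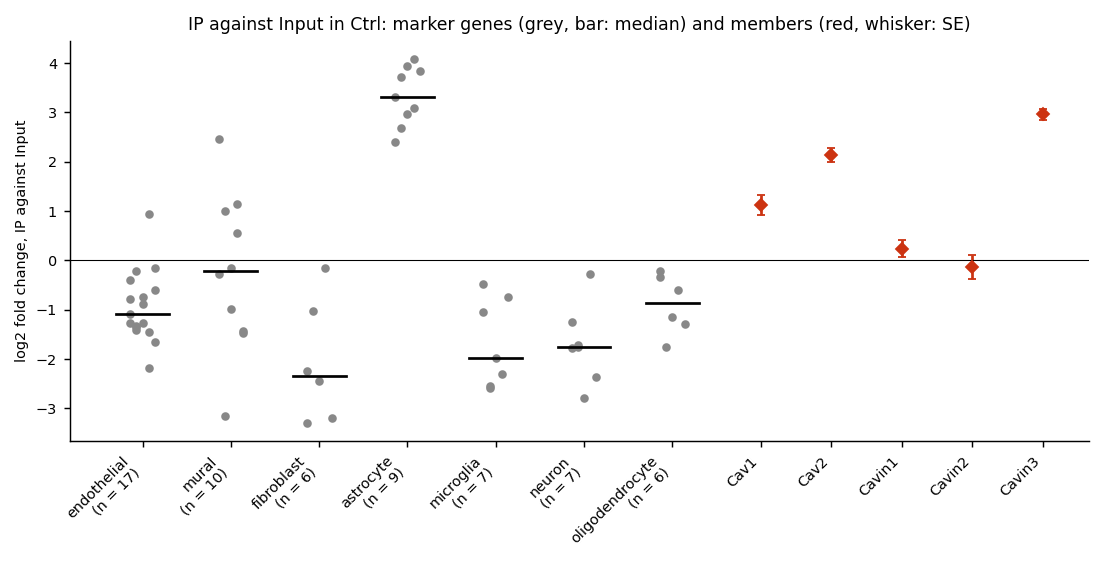
Log2 fold change of IP against Input in Ctrl mice (n = 3 per fraction) for the genes of 7 marker lists (grey points, black bar at the median) and the 5 members (red diamonds with SE). Cavin3 at 2.96 lies among the astrocyte markers, Cav2 at 2.13 and Cav1 at 1.12 lie below them, and Cavin1 at 0.24 and Cavin2 at -0.14 lie near 0.

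The same 3 members were higher in IP in cKO mice. The log2 differences from Input were 3.39 (SE 0.19) for Cav2, 2.98 (SE 0.45) for Cav1 and 2.79 (SE 0.17) for Cavin3 (n = 3 per fraction). Cavin1 at -0.06 (SE 0.19) and Cavin2 at -0.19 (SE 0.32) were again near 0, and their fractions overlapped. Among all genes, 27.8% of 24011 tested were higher in cKO IP, and 31.5% had no overlap in that direction. The median of the 9 astrocyte markers was 2.66 in cKO mice.

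At P24 the caveolin genes were higher in cKO bulk cortex. Cav1 was at 7.96, 7.43, 7.77 and 8.11 CPM in Ctrl and at 10.5, 27.9, 22.6 and 23.7 CPM in cKO cortex, a log2 difference of 1.42 (SE 0.23) or 2.69-fold. Cav2 was at 15.8, 15.9, 14.5 and 15.2 CPM in Ctrl and at 24.7, 36.4, 31.6 and 37.4 CPM in cKO cortex, a log2 difference of 1.08 (SE 0.11) or 2.11-fold. No cKO library overlapped a Ctrl library for either gene, and the Ctrl mice were tightly grouped. The cKO mice were not: replicate 1 was lowest for Cav1, Cav2, Cavin1 and Cavin3, and without it the log2 difference of Cav1 was 1.65. The bulk values cannot tell more expressing cells from more RNA per cell.

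The cavins did not move as one at P24. Cavin3 was at 7.96, 6.91, 6.63 and 8.70 CPM in Ctrl and at 8.06, 15.4, 12.5 and 13.3 CPM in cKO cortex, so 3 of 4 cKO libraries were above the Ctrl range and replicate 1 lay within it. Its log2 difference was 0.70 (SE 0.17), short of the threshold, and was 0.86 and past it without cKO replicate 1. DESeq2, the likelihood ratio test, the unfiltered table and a fit with all bulk libraries also put Cavin3 past the threshold. Cavin1 was at 14.1, 11.6, 11.1 and 10.9 CPM in Ctrl and at 9.35, 15.5, 13.4 and 13.8 CPM in cKO cortex, and Cavin2 at 5.38, 4.16, 5.64 and 4.50 CPM against 5.55, 4.28, 5.78 and 4.63 CPM. The genotypes overlapped for both, with log2 differences of 0.12 (SE 0.14) and 0.04 (SE 0.15), and the sign of the Cavin2 value turned when single libraries were left out.

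In the P24 bulk test, 2 of 5 members were past the threshold, both higher, where 1.26% of 22495 genes were higher and 0.462% lower. By overlap, the same 2 members had cKO libraries all above Ctrl libraries, as did 3.95% of all genes. No significance is read from these counts, since the members were chosen with this contrast known.

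The ratio of cavins to caveolins was lower in every cKO than in every Ctrl bulk library at both ages, but it was not tested. The P24 ratio holds the Cav1 and Cav2 differences that were known when the members were chosen. At P17 the genotypes overlapped for each member taken alone. The 3 cavins together amounted to 126 to 149% of the 2 caveolins per kb in the 4 P24 Ctrl libraries and to 74.0 to 88.6% in the 4 cKO libraries. At P17 they amounted to 153 to 158% in Ctrl and 123 to 143% in cKO cortex, again without overlap, while in Input the genotypes overlapped, at 178 to 292% in Ctrl and 159 to 249% in cKO. At P24 Cav1 was at 45.3 to 52.0% of Cav2 per kb in Ctrl and at 41.1 to 74.2% in cKO cortex, so the balance between the caveolins overlapped where that between the families did not.

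Endothelial and mural marker sums overlapped between genotypes in P24 bulk cortex, and astrocyte sums did not. By edgeR 0 of 18 endothelial and 0 of 12 mural markers passed the threshold, by DESeq2 0 and 0, and at an unadjusted p under 0.05 there were 0 and 2. Summed endothelial markers were at 377 to 411 CPM in Ctrl and 382 to 404 CPM in cKO cortex, with a median log2 difference of 0.015 and single genes between -0.14 and 0.17. Summed mural markers were at 239 to 250 CPM in Ctrl and 216 to 259 CPM in cKO cortex, with a median of 0.04. Of 7 perivascular fibroblast and meningeal markers 0 passed by edgeR and 0 by DESeq2, 2 had an unadjusted p under 0.05 and the median was -0.32, with sums of 135 to 192 CPM in Ctrl and 88.0 to 149 CPM in cKO cortex. Replicate 1, the cKO library lowest for Cav1, had the lowest cKO sum of both the mural and the fibroblast list. Its sums of the endothelial and the astrocyte list were the highest among cKO libraries. Summed astrocyte markers were at 3726 to 4345 CPM in Ctrl and, lower without overlap, at 3188 to 3640 CPM in cKO cortex. Slc1a2 was the largest part of that sum, at means of 2691 CPM in Ctrl and 2033 CPM in cKO cortex. Aldoc was next, at 601 and 618 CPM. Of 9 astrocyte markers 2 were higher and 3 lower by edgeR, among them Aldh1l1 at 1.18 (SE 0.13) and Slc1a3 at -0.40 (SE 0.07). The Slc1a3 value missed the threshold when any of 4 libraries was left out. The part of these cell types in the bulk values of the members was not tested.

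**Figure D3:**
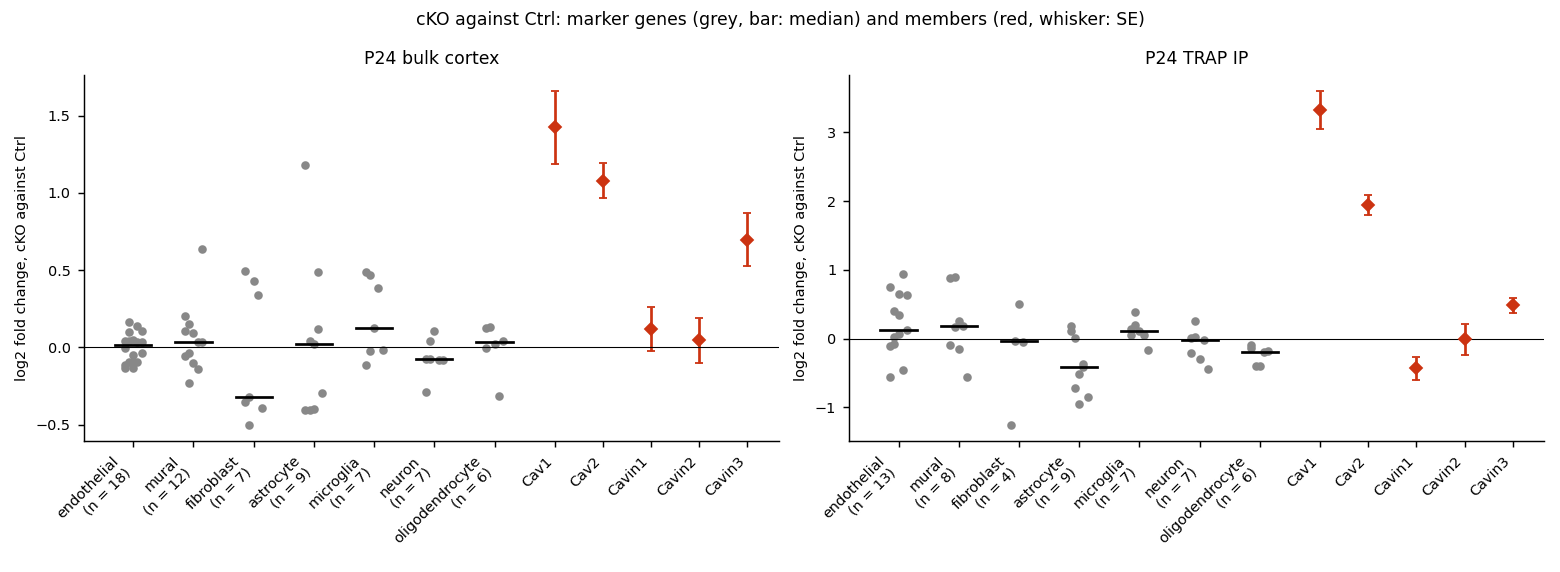
Log2 fold change of cKO against Ctrl at P24 in bulk cortex (left, n = 4 per genotype) and TRAP IP (right, n = 3) for the tested genes of 7 marker lists (grey points, black bar at the median) and the members (red diamonds with SE). Cav1 at 1.42 in bulk and 3.32 in IP lies above every marker gene shown, while Cavin1 and Cavin2 lie within the spread of both the vascular and the astrocyte markers.

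The IP libraries carried a larger cKO difference for the caveolins. Cav1 was at 4.80, 6.39 and 4.57 CPM in Ctrl IP and at 39.4, 77.2 and 38.7 CPM in cKO IP, a log2 difference of 3.32 (SE 0.27) or 10.0-fold. Cav2 was at 65.1, 82.6 and 58.6 CPM in Ctrl IP and at 265, 298 and 219 CPM in cKO IP, a log2 difference of 1.95 (SE 0.15) or 3.85-fold. Cavin3, already the most abundant member there, was at 123, 134 and 117 CPM in Ctrl IP and at 152, 181 and 182 CPM in cKO IP, a log2 difference of 0.49 (SE 0.11) or 1.40-fold. All cKO libraries stood above all Ctrl libraries for these 3 genes, with Cav1 highest in cKO replicate 2.

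Cavin1 went the other way in its mean, at 12.3, 8.61 and 11.3 CPM in Ctrl IP and 6.53, 8.34 and 8.63 CPM in cKO IP, a log2 difference of -0.43 (SE 0.17) that missed the threshold, with 1 cKO library inside the Ctrl range. It passed the threshold at -0.55 when libraries were scaled by size alone and at -0.57 without Ctrl replicate 2. Cavin2 was at 1.78, 1.65 and 1.89 CPM against 2.10, 1.68 and 1.44 CPM, a log2 difference of -0.01 (SE 0.22). In the IP test 3 of 5 members were past the threshold and higher, where 11.6% of 23864 genes were higher and 8.42% lower, and 19.3% of all genes had cKO libraries all above Ctrl libraries. Cavin3 lost its place past the threshold, at 0.48, when all TRAP libraries entered one fit.

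In the same IP libraries 3 of 9 astrocyte markers were lower and 0 higher, with a median of -0.41, and summed astrocyte markers were at 8800 to 11636 CPM in Ctrl and 7754 to 10443 CPM in cKO. By DESeq2 5 of the 9 passed, and 5 had an unadjusted p under 0.05. Of the endothelial markers 13 were tested, 1 was higher and 1 lower with a median of 0.13, and their sum was 40.6 to 51.1 CPM in Ctrl IP and 32.9 to 46.1 CPM in cKO IP. Slc2a1 was the largest part of that sum, at means of 33.1 CPM in Ctrl IP and 22.1 CPM in cKO IP, so the sums mainly follow this gene. Its mean in Ctrl Input was 16.6 CPM, below that in Ctrl IP. Of 8 mural markers tested, 2 were higher and 0 lower with a median of 0.18, and their sum was 31.9 to 45.7 CPM in Ctrl IP and 46.0 to 53.9 CPM in cKO IP, without overlap. The part of mural transcripts in the IP values of Cav1 and Cav2 was not tested.

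Per kb, Cav1 was at 7.15 to 7.55% of Cav2 in the Ctrl IP libraries and at 14.4 to 25.1% in the cKO IP libraries. The cavins summed to 314 to 393% of the caveolins per kb in Ctrl IP and to 99.9 to 146% in cKO IP, again without overlap and not tested. The order of mean levels in cKO IP was Cavin3 at 103 ± 10.2 CPM per kb, Cav2 at 78.2 ± 11.8, Cav1 at 15.04 ± 6.39, Cavin1 at 2.18 ± 0.317 and Cavin2 at 0.570 ± 0.110 (SD, n = 3), so Cav1 and Cavin1 had exchanged places.

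**Figure D4:**
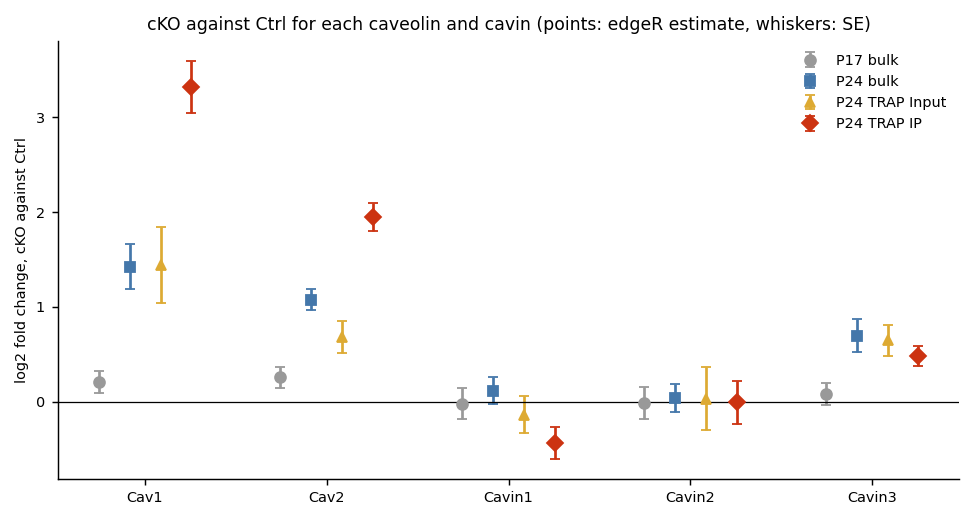
Log2 fold change of cKO against Ctrl for each member at P17 and P24 in bulk cortex (n = 4 per genotype) and in TRAP Input and IP at P24 (n = 3), with SE as whiskers. Values for Cav1 are 0.21 at P17, 1.42 in P24 bulk, 1.44 in Input and 3.32 in IP, and those for Cavin2 stay between -0.01 and 0.04.

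At P17 the genotypes overlapped for every member. Cav1 was at 9.51, 9.69, 7.71 and 9.05 CPM in Ctrl and at 9.98, 11.2, 11.1 and 9.11 CPM in cKO cortex, a log2 difference of 0.21 (SE 0.11, 95% interval -0.02 to 0.43, adjusted p = 1.00 by edgeR). Cav2 was at 13.9, 16.9, 16.7 and 15.98 CPM in Ctrl and at 19.3, 16.3, 22.4 and 17.3 CPM in cKO cortex, a log2 difference of 0.26 (SE 0.11, 95% interval 0.05 to 0.47, adjusted p = 1.00 by edgeR). Both intervals ended below the P24 estimates. Same-numbered libraries deviated together at P17 (r 0.167 to 0.380), although no label says that they are pairs. Taken by number, Cav1 was higher in cKO in 4 of 4 and Cav2 in 3 of 4. With the replicate block the differences were 0.21 (SE 0.12, adjusted p = 0.806 by edgeR) for Cav1 and 0.25 (SE 0.094, adjusted p = 0.497 by edgeR) for Cav2.

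For the cavins at P17, Cavin1 was at 15.99, 19.0, 14.1 and 17.8 CPM in Ctrl and at 21.03, 16.7, 17.05 and 10.8 CPM in cKO cortex, a wide spread with a log2 difference of -0.02 (SE 0.16). Cavin2 was at 5.44, 5.30, 7.28 and 5.70 CPM against 5.90, 5.001, 7.41 and 5.02 CPM, and differed by -0.01 (SE 0.17). Cavin3 was at 7.86, 8.41, 7.93 and 7.49 CPM against 7.73, 7.66, 9.74 and 8.29 CPM, and differed by 0.08 (SE 0.12, 95% interval -0.14 to 0.31). The adjusted p was 1.00 for each of the 3 by edgeR, the genotypes overlapped for each, and the signs for Cavin1 and Cavin2 turned without single libraries. By edgeR 0 of 5 members passed the threshold, where 0.0943% of 21201 genes did, by DESeq2 0 did, and 1 had an unadjusted p under 0.05. The vascular lists at P17 were also level, with 0 of 18 endothelial and 0 of 12 mural markers past the threshold by edgeR, 0 and 0 by DESeq2, and 1 and 0 at an unadjusted p under 0.05.

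The change of the genotype difference from P17 to P24 was 1.22 (SE 0.30) for Cav1, 0.82 (SE 0.17) for Cav2, 0.61 (SE 0.23) for Cavin3, 0.14 (SE 0.24) for Cavin1 and 0.05 (SE 0.22) for Cavin2 on the log2 scale. By edgeR 0 of 5 members were past the threshold for this interaction, where 0.0470% of 23395 genes were. By DESeq2 2 were, and 3 had an unadjusted p under 0.05. Without P24 cKO replicate 1, Cav1, Cav2 and Cavin3 all passed, at 1.44, 0.93 and 0.77. The interaction holds the P24 contrast from which the members were chosen, so it is a description here.

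The Input libraries came from the whole homogenate of the TRAP mice, which are the mice of the IP libraries and not those of P24 bulk. The members were chosen with these libraries known, so the Input values are no independent support. Cav1 was at 1.95, 2.71 and 2.42 CPM in Ctrl and at 3.36, 10.5 and 5.47 CPM in cKO Input, a log2 difference of 1.44 (SE 0.40, 95% interval 0.65 to 2.23, adjusted p = 0.682 by edgeR). Cav2 was at 14.5, 13.3 and 17.8 CPM in Ctrl and at 23.96, 26.4 and 23.8 CPM in cKO Input, a log2 difference of 0.68 (SE 0.17, 95% interval 0.36 to 1.01, adjusted p = 0.455 by edgeR). Cavin3 was at 15.6, 17.1 and 13.9 CPM against 29.0, 23.6 and 21.5 CPM, a log2 difference of 0.65 (SE 0.17, 95% interval 0.32 to 0.97, adjusted p = 0.529 by edgeR). For these 3 genes every cKO Input library stood above every Ctrl Input library, as for 7.53% of all genes, but none passed the adjusted test. Cavin1 at 9.18, 10.4 and 6.91 CPM against 7.90, 8.79 and 7.66 CPM differed by -0.14 (SE 0.20, adjusted p = 0.864 by edgeR), and Cavin2 at 1.74, 2.49 and 1.46 CPM against 1.95, 2.64 and 1.31 CPM by 0.03 (SE 0.33, adjusted p = 0.984 by edgeR). Both overlapped.

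By edgeR 0 of 5 members passed the threshold in Input, where 0.109% of 23828 genes did, by DESeq2 0 did, and 3 had an unadjusted p under 0.05. Without Input cKO replicate 1, the lowest of its group for Cav1, Cav1 passed at 1.75. Summed astrocyte markers were also higher in cKO Input, at 1271 to 1490 CPM against 868 to 993 CPM in Ctrl Input without overlap, with 1 of 9 past the threshold and a median of 0.40. Endothelial sums overlapped, at 42.5 to 53.5 CPM in Ctrl and 48.6 to 60.5 CPM in cKO Input, as did mural sums, at 30.3 to 41.0 and 37.9 to 44.3 CPM. In P24 bulk the astrocyte sum had the opposite order, but its largest part there was Slc1a2. In Input the largest part was Aldoc, at means of 404 CPM in Ctrl and 775 CPM in cKO. Slc1a2 was at 298 and 279 CPM in Input. The part of astrocyte transcripts in the Input values of the members was not tested.

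The genotype difference was larger in IP than in Input by 1.88 (SE 0.54) for Cav1 and 1.26 (SE 0.23) for Cav2 on the log2 scale, and differed by -0.17 (SE 0.19) for Cavin3, -0.30 (SE 0.27) for Cavin1 and -0.04 (SE 0.40) for Cavin2. By edgeR 0 of 5 members passed the threshold, where 0.0582% of 25768 genes did, by DESeq2 2 did, and 2 had an unadjusted p under 0.05. The 9 astrocyte markers went the other way, between -1.01 and -0.61 with a median of -0.82 (-0.03 over all genes tested), of which 0 passed by edgeR, 2 by DESeq2 and 7 had an unadjusted p under 0.05. Their part in the values of the members was not tested.

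Bulk cortex and Input differed in the marker levels of several cell types. Summed endothelial markers were at 377 to 411 CPM in P24 Ctrl bulk cortex and 42.5 to 53.5 CPM in Ctrl Input. Mural sums were at 239 to 250 against 30.3 to 41.0 CPM, fibroblast and meningeal sums at 135 to 192 against 35.1 to 49.7 CPM, astrocyte sums at 3726 to 4345 against 868 to 993 CPM and microglia sums at 280.0 to 314 against 167 to 189 CPM. The astrocyte markers differed unevenly. Their Ctrl means were 2691 against 298 CPM for Slc1a2, 118 against 30.1 CPM for Gja1 and 52.2 against 50.1 CPM for Aldh1l1. Beside this, Cav1 and Cavin2 were lower in Ctrl Input than in P24 Ctrl bulk cortex, at 1.95 to 2.71 against 7.43 to 8.11 CPM and at 1.46 to 2.49 against 4.16 to 5.64 CPM. Cav2 was at 13.3 to 17.8 against 14.5 to 15.9 CPM, and Cavin3 at 13.9 to 17.1 against 6.63 to 8.70 CPM. The 2 preparations came from other mice, were prepared differently and were not tested against each other.

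The reads of the antisense gene Gm15581 followed those of the caveolins. Over 28 libraries the Gm15581 count was 92.2 to 115% of the summed Cav1 and Cav2 count, with a median of 101%, although the exons of Gm15581 share 0 bases with those of Cav1 or Cav2 in GENCODE M21. Its cKO difference was 1.11 (SE 0.15) in P24 bulk and 2.11 (SE 0.17) in IP on the log2 scale. The strand setting and the way reads were assigned to genes are not given in the sources used here, so reads of the antisense gene and of both caveolins cannot be told apart. Cavin3 is overlapped by Gm45667, which shares 374 exonic bases with it and held 18.5 to 40.1% of its count, and Cavin2 lies within 9330175M20Rik, which shares 0 exonic bases and held 75.6 to 227% of its count. Reads of these pairs cannot be told apart either.

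**Figure D5:**
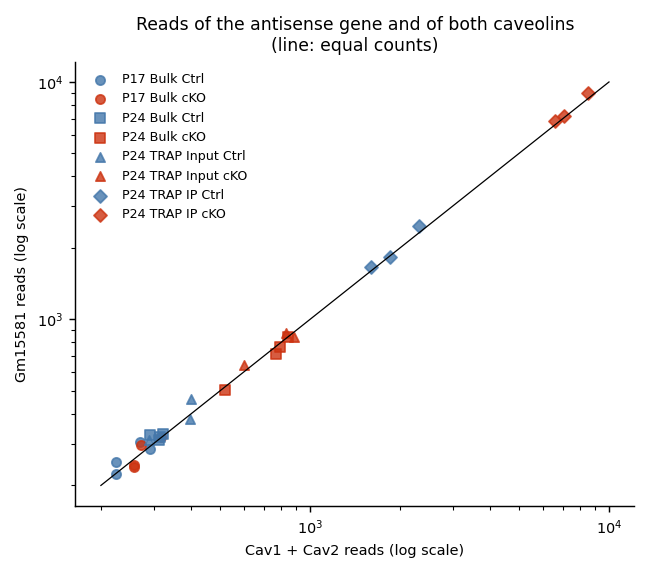
Reads assigned to the antisense gene Gm15581 against the summed reads of Cav1 and Cav2 in each of 28 libraries (both axes logarithmic, blue Ctrl, red cKO, symbols by experiment). The points follow the line of equal counts, at 92.2 to 115% of the sum.

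Of the muscle members of the families, Cav3, the muscle caveolin, was near the floor, with 0 to 6 reads per library. Cavin4, the muscle cavin, was low, with 3 to 23 reads per library and group means of 1.10 to 1.37 CPM in bulk. It was tested in bulk only, where it differed by 0.026 (SE 0.29) at P24 and 0.064 (SE 0.35) at P17 on the log2 scale, neither past the threshold. Of 11 genes for the caveola neck, related membrane coats and endothelial caveolar transport, 0 passed the threshold in P24 bulk by edgeR, 1 by DESeq2, and 3 had an unadjusted p under 0.05, with a median log2 difference of -0.01. In IP, 1 was higher and 2 were lower, with a median of 0.14.

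The gene that was higher was Ehd2, whose ATPase gathers at the caveola neck and holds caveolae at the membrane. It was at 4.35, 4.21 and 4.45 CPM in Ctrl IP and at 7.95, 12.3 and 12.3 CPM in cKO IP. The log2 difference was 1.34 (SE 0.18). In P24 bulk Ehd2 was at 7.22, 5.87, 5.49 and 5.97 CPM in Ctrl and at 6.03, 12.4, 9.93 and 12.4 CPM in cKO cortex. The log2 difference was 0.72 (SE 0.20), short of the threshold by edgeR. Ehd2 shared the low cKO replicate 1 with Cav1 and Cavin3 and passed at 0.91 without that library. Between fractions in Ctrl it was 0.67 higher in IP (SE 0.27), past the threshold by edgeR, a call lost when any of 4 libraries was left out.

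The F-BAR genes Pacsin3 and Pacsin1, whose products curve membranes, were lower in cKO IP, by -0.87 (SE 0.11) and -0.42 (SE 0.13). The Pacsin1 call was lost when any of 4 libraries was left out. At P17 only Mfsd2a of the 11 passed, a lipid transporter gene that restrains caveolar transport at the blood-brain barrier. It was at 33.1, 32.6, 35.0 and 36.2 CPM in Ctrl and at 47.2, 44.8, 47.0 and 43.0 CPM in cKO cortex, a log2 difference of 0.42 (SE 0.06, adjusted p = 0.0132 by edgeR) with no overlap, although 5 of the 8 fits that left out 1 library missed the threshold, as did a fit of all bulk libraries, with values between 0.40 and 0.45 over the 8. In Ctrl mice it was also higher in IP than in Input, at 37.5, 48.2 and 55.2 CPM against 5.56, 8.31 and 6.30 CPM.

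The genes most like each member were ranked by Pearson's r of log2 CPM, as a description with no p. Over the 12 TRAP libraries, which differ in fraction and genotype, Cav1 was most like Dap at 0.980, Tagln2 at 0.975 and Dhrs1 at 0.969. Cav2 was most like Gm15581 at 0.997, Gm48795 at 0.993 and Pea15a at 0.990, and Cavin3 like Cib1 at 0.998, Hsd17b4 at 0.997 and Rlbp1 at 0.997. Cavin1 reached only 0.861 with Taf8, 0.838 with Cdk5rap1 and 0.837 with Mtmr14, and Cavin2 was below the mean level set for ranking.

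Within groups, over the 16 bulk libraries after group means were subtracted, Cav1 and Cavin3 varied together at r = 0.851, Cav2 and Cavin3 at 0.781 and Cav1 and Cav2 at 0.661. Cavin1 was at 0.674 with Cav1 and Cavin2 at -0.30 with it. The closest genes were Gm3788 at 0.932, Msn at 0.923 and Gm4815 at 0.912 for Cav1, Gm15581 at 0.879, Chga at 0.873 and Rnf11 at 0.856 for Cav2, and Gm26862 at 0.964, Dhrs1 at 0.938 and Fam181b at 0.934 for Cavin3. For Cavin1 they were 4921514A10Rik at 0.887, Gm44167 at 0.886 and Rad54b at 0.872, and for Cavin2 Htr5a at 0.890, Gm2260 at 0.876 and Ccdc117 at 0.866. Of the members, Cavin2 had the highest r with the summed endothelial markers, at 0.578, against -0.32 for Cav1, 0.190 for Cav2, 0.229 for Cavin1 and -0.27 for Cavin3. With the summed mural markers Cav1 was at 0.691, Cavin1 at 0.626, Cavin3 at 0.462, Cav2 at 0.249 and Cavin2 at -0.26, and for Cav1 this was above its r with Cav2. With the summed astrocyte markers Cavin3 was at -0.512, Cav1 at -0.466, Cav2 at -0.157, Cavin1 at -0.121 and Cavin2 at 0.106. These points share libraries and depth, and P24 cKO replicate 1, low for Cav1 and lowest of the 16 for the mural sum at 216 CPM, is among them.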

How the data were processed

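Cortical RNA from single mice was sequenced as bulk RNA-Seq (16 libraries) and TRAP-Seq (12 libraries). Reads were aligned by the authors to mm10 (RNA STAR, Galaxy), and unnormalized counts per Ensembl gene were deposited as 1 table per experiment. The counting tool, strand setting and annotation are not given in the sources used here. Bulk columns were matched to samples by column name and the age in the table's name. The gene the study deletes is not reported here.

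Genotype contrasts, IP against Input and both interactions were fitted per experiment with edgeR 4.0.16 in R 4.3.3 (TMM factors, quasi-likelihood test, Benjamini-Hochberg adjustment over all genes passing filterByExpr at a minimum count of 10, threshold 0.05). CPM use library totals scaled by TMM factors, set over all bulk or over all TRAP libraries. The CPM of 3 reads use the totals alone. SE is the log2 fold change divided by the root of F, and 95% intervals are 1.96 SE. Members and lists were chosen with earlier results of these data known, so passing the threshold in P24 bulk, IP or IP against Input is a description. Named genes were the 5 members, companion genes past the threshold, 7 marker examples and the 3 genes most like each member by r (mean log2 CPM of at least 1, prior count 2). DESeq2 1.42.0, other scaling, filters, replicate block and leaving out each library were alternatives. The scripts were tested on simulated data.

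Replicate pairs differed beyond sampling noise (chi-square per degree of freedom 2.79 to 89.8 over 36 pairs), so each library counted once. Same-numbered cKO and Ctrl libraries deviated together at P17 (r 0.167 to 0.380 in 4 pairs) but not throughout at P24 (0.0285 to 0.218 in bulk). No label says that these mice are pairs. IP and Input libraries of one number came from the same mouse. P-values of the genotype contrasts measure the spread between mice. Those of IP against Input and of the fraction interaction treat both libraries of a mouse as independent, except with the replicate block.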

Additional observations from a re-analysis of the deposited data

How the results depend on the processing

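Among the tests of the 5 members, 290 of the values under other settings and 303 of those with 1 library left out kept their direction and side of the threshold. Cav1 and Cav2 stayed past it in P24 bulk, IP and both IP against Input comparisons under each of these settings. The members were chosen with these contrasts known, so this is a description and carries no weight as support. DESeq2, the likelihood ratio test and no filter called 598, 619 and 618 genes in P24 bulk, 41, 61 and 55 at P17, 127, 137 and 112 in Input, 54, 52 and 62 for the age interaction and 284, 219 and 189 for the fraction interaction. Each of these 3 settings called 2 members (Cav1 and Cav2) in each interaction. At least 10 counts per library gave 15 genes in Input. A fit with all TRAP libraries gave 1684 genes in IP and 127 in Input.

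With the replicate block the counts were 109 at P17, 8 in Input, 55 for the age interaction (1 member, Cav2, at 0.81) and 6 for the fraction interaction. At P17, where same-numbered libraries deviated together, 0 members passed with the block. The block changed no other member's call. It raised the IP count to 6735.

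Leaving out 1 library gave 216 to 950 genes in P24 bulk (950 without cKO replicate 1), 11 to 19 at P17, 2633 to 4810 in IP, 4 to 112 in Input (112 without cKO replicate 1), 4 to 149 for the age interaction (149 without P24 cKO replicate 1) and 3 to 432 for the fraction interaction (432 without Input cKO replicate 1). Members called ranged from 0 to 1 in Input, 0 to 3 for age and 0 to 1 for fraction. Signs turned only for values near 0. Cavin2 ranged from -0.027 to 0.11 in P24 bulk, -0.14 to 0.10 at P17, -0.13 to 0.12 in IP, -0.25 to 0.26 in Input (-1.1e-05 with library size alone), -0.30 to 0.10 and -0.42 to 0.12 for IP against Input in Ctrl and cKO, -0.064 to 0.19 for age and -0.29 to 0.24 for fraction. Cavin1 ranged from -0.16 to 0.14 at P17, -0.12 to 0.083 for IP against Input in cKO and -0.023 to 0.28 for age, and Rgs5 from -0.44 to 0.12 for IP against Input in Ctrl. Cavin1 passed at 0.44 for IP against Input in Ctrl without IP replicate 2. The causes were not tested. Cavin2 had 29 to 82 reads per library.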
